A study of Caenorhabditis elegans
Pristionchus pacificus with 6 samples.

Results

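The cytosolic heat shock genes described here are 9 genes of *C. elegans*, chosen by their identifiers from the 73268 gene rows of the deposited count table. They are the 6 genes of the hsp-16 family, which are hsp-16.1 (WBGene00002015), hsp-16.2 (WBGene00002016), hsp-16.11 (WBGene00002017), hsp-16.41 (WBGene00002018), hsp-16.48 (WBGene00002019) and hsp-16.49 (WBGene00002020), together with hsp-70 (WBGene00002026), hsp-1 (WBGene00002005) and daf-21 (WBGene00000915). RNA was measured by sequencing in dissected anterior intestines of adult hermaphrodites grown at 20 °C and dissected 72 hours after egg lay, with 3 libraries of a control and 3 of a strain of reduced intestinal ploidy, CDK-2gut(-). Both strains carried cdk-2 tagged with a ZF domain and GFP and the zif-1(gk117) mutation. CDK-2gut(-) also carried asp-1p::vhhGFP4::zif-1, in which the asp-1 promoter drives a GFP nanobody fused to ZIF-1, the adaptor that sends tagged protein to degradation. Depletion of CDK-2 is thus at the level of protein and was not measured by these libraries. Lysate of *Pristionchus pacificus* intestines, dissected at 96 hours, was added in equal amount to each *C. elegans* lysate as a spike-in. According to the labels lysates were pooled. Separate cultures behind the 3 libraries of each strain are not stated, and each p-value therefore reflects library-to-library spread that may be only technical.

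In *C. elegans*, as in other animals, unfolded protein in the cytosol activates the heat shock transcription factor HSF-1, which binds heat shock elements in front of its target genes. The hsp-16 genes encode small heat shock proteins of the alpha-crystallin family, which hold unfolding proteins in solution, and hsp-70 encodes a heat-inducible Hsp70 that refolds them. Both are almost silent in unstressed worms, and hsp-16 promoters are widely used as stress reporters, with strong induction in the intestine. By contrast, hsp-1 encodes the constitutive Hsp70 (Hsc70) and daf-21 encodes Hsp90, and both are expressed without stress and raised further by heat. In the RefSeq annotation of assembly WBcel235, hsp-16.2 and hsp-16.41 are neighbours, and hsp-16.1, hsp-16.48, hsp-16.49 and hsp-16.11 follow each other in that order without another coding gene between them. The genes hsp-16.1 and hsp-16.11, and likewise hsp-16.48 and hsp-16.49, are near-identical copies. Multi-mapping reads are absent from the table, so the counts of these 4 genes are uncertain and may be too low.

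The table does not name the species of a row: its last 26310 rows were taken as the spike-in and all rows before them as *C. elegans*, an inference from the counts. The control libraries held 9432973 to 10665065 *C. elegans* counts and the CDK-2gut(-) libraries 11273570 to 15874554, and levels are given as CPM, counts per 1000000 of these totals. All 9 genes were among the 8309 tested after the filter on low counts. Markers of intestine and of other tissues were not checked, because the table's identifiers are not paired with symbols, and in bulk RNA fewer cells of a type and less RNA per cell cannot be told apart. Control 2 stood apart from the other control libraries in that 155 tested genes (1.87%) were at least 4-fold above both other controls, on the log2(CPM + 0.5) scale, against 35 for control 1 and 0 for control 3. Of these 155, 8 were heat shock genes of the set described here. Control 3 had 269 tested genes (3.24%) at least 4-fold below both other controls, 2 of them heat shock genes. It also had the fewest detected *C. elegans* genes, 10247 against 11898 to 13425 in the other libraries.

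For each of the 9 genes the range between control libraries was wider than the difference between the strain means. The inducible genes, hsp-16 and hsp-70, had at most 5 counts each in control 3 and at most 44 in control 1, against 141 to 7625 in control 2. In CPM, all 3 CDK-2gut(-) libraries lay between control 2 and the other controls. With the 6 libraries, none of the 9 genes passed the test between strains in either direction. For 8 of the 9 genes, control 2 was the highest of the 6 libraries, and for 9 of 9 control 3 was the lowest. How many of all tested genes shared either of these orders was not counted.

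**Figure D1:**
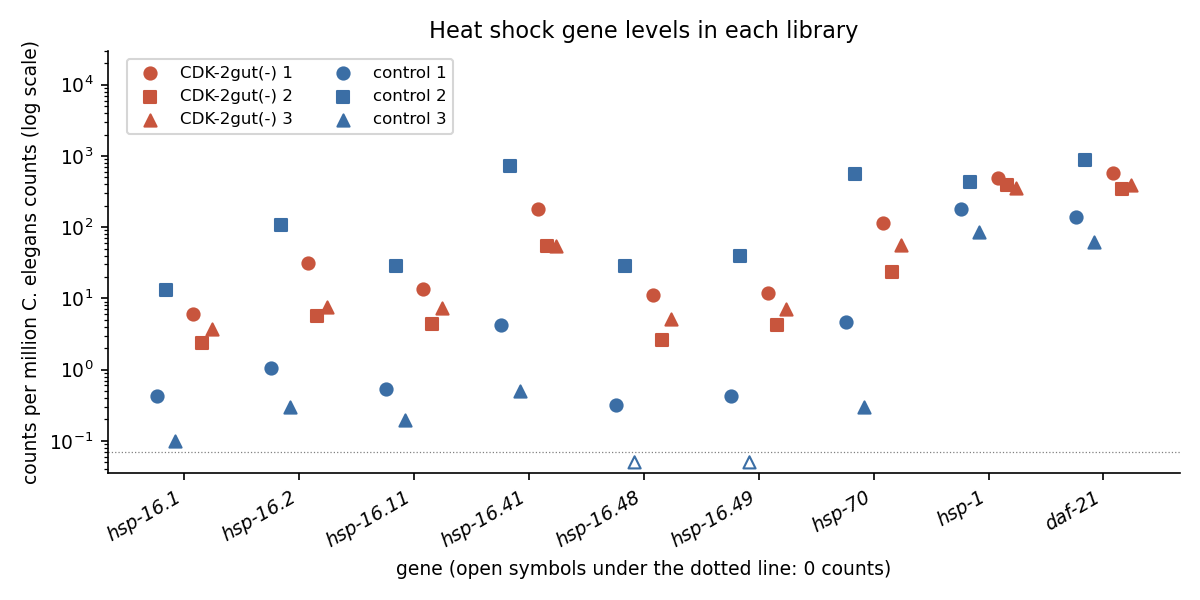
Level of each heat shock gene in each of the 6 libraries, in CPM on a log scale, with control in blue and CDK-2gut(-) in red and 1 symbol per replicate number. Control 2 is the highest point for all genes but hsp-1, and the CDK-2gut(-) points lie above controls 1 and 3 for every gene; open symbols mark 0 counts.

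Among the small heat shock genes, hsp-16.41 had the most counts. Its level was 4.24 CPM in control 1, 715 CPM in control 2 and 0.498 CPM in control 3. In CDK-2gut(-) libraries 1, 2 and 3 it was 181, 53.99 and 53.7 CPM. Control 2 stood 169-fold above control 1 and 3.95-fold above the highest CDK-2gut(-) library, while the lowest CDK-2gut(-) library stood 12.7-fold above control 1. The control mean was 240 ± 411 CPM (SD, n = 3) and the CDK-2gut(-) mean 96.2 ± 73.4 CPM (SD, n = 3). The value in control 3 rests on 5 counts, with an exact Poisson 95% interval of 0.162 to 1.16 CPM that covers counting error only.

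Its neighbour hsp-16.2, a gene widely used as a stress reporter, was likewise highest in control 2 and lowest in control 3. The levels were 1.06, 106 and 0.299 CPM in controls 1, 2 and 3, and 31.1, 5.73 and 7.63 CPM in CDK-2gut(-) 1, 2 and 3. The groups overlapped, since control 2 exceeded every CDK-2gut(-) library and the other controls lay below them all. The ratio of hsp-16.41 to hsp-16.2 counts was 6.72 in control 2 and 5.82, 9.43 and 7.03 in the CDK-2gut(-) libraries. It was lower in the 2 libraries with few counts, at 4.0 in control 1 (40 and 10 counts) and 1.67 in control 3 (5 and 3 counts).

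The 4 neighbouring genes hsp-16.1, hsp-16.48, hsp-16.49 and hsp-16.11 were lower in counts and had the same pattern. In controls 1 and 3 each had at most 5 counts, and hsp-16.48 and hsp-16.49 had 0 counts in control 3. In control 2 they stood at 13.2, 28.7, 39.0 and 28.8 CPM in the order named. Against a floor of 3 counts in control 3, control 2 was at least 96.0-fold higher for hsp-16.48 and at least 131-fold higher for hsp-16.49. In CDK-2gut(-) 1 the 4 levels were 5.98, 11.3, 12.03 and 13.4 CPM, in CDK-2gut(-) 2 they were 2.39, 2.62, 4.29 and 4.37 CPM, and in CDK-2gut(-) 3 they were 3.73, 5.14, 7.18 and 7.27 CPM. Every CDK-2gut(-) value thus lay above controls 1 and 3 and below control 2.

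The inducible Hsp70 gene hsp-70 varied as much as hsp-16.41. Its level was 4.66, 567 and 0.299 CPM in controls 1, 2 and 3, a mean of 191 ± 326 CPM (SD, n = 3). In CDK-2gut(-) 1, 2 and 3 it was 116, 23.8 and 56.8 CPM, a mean of 65.4 ± 46.6 CPM (SD, n = 3). Control 2 stood 122-fold above control 1 and 4.90-fold above the highest CDK-2gut(-) library. The ratio of hsp-70 counts to summed hsp-16 counts stayed within 0.324 to 0.671 in the 5 libraries with at least 66 hsp-16 counts.

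The constitutive genes ran in nearly the same order over a much narrower range. The Hsc70 gene hsp-1 stood at 183, 435 and 84.5 CPM in controls 1, 2 and 3 and at 486, 392 and 355 CPM in CDK-2gut(-) 1, 2 and 3. It was the exception to the rule that control 2 was highest, with CDK-2gut(-) 1 above it. The control mean was 234 ± 181 CPM and the CDK-2gut(-) mean 411 ± 67.3 CPM (SD, n = 3), and the groups overlapped. The Hsp90 gene daf-21 stood at 139, 874 and 62.7 CPM in controls 1, 2 and 3 and at 580, 340 and 388 CPM in CDK-2gut(-) 1, 2 and 3. Control 2 was 6.27-fold above control 1 for daf-21 and 2.38-fold for hsp-1. The ratio of daf-21 to hsp-1 counts was 2.01 in control 2, against 0.763 and 0.742 in controls 1 and 3 and 0.866 to 1.19 in CDK-2gut(-).

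Set against all tested genes, the spread of the inducible genes between control libraries was extreme. The range from lowest to highest control was 9.49 for hsp-16.41 and 9.47 for hsp-70 on the log2(CPM + 0.5) scale, the 2 widest of 8309 genes, and the widest among all other genes was 7.68. The median gene had a control range of 0.74. All 7 inducible genes lay within the 84 widest (1.01% of genes), down to hsp-16.1 with 4.52. The range was 3.79 for daf-21, at rank 174, and 2.35 for hsp-1, at rank 615. These ranks depend on the 0.5 CPM added before taking logs: with 0.1 and 2 CPM instead, daf-21 stood at ranks 504 and 46, hsp-1 at 1191 and 210 and hsp-16.1 at 82 and 115. In CDK-2gut(-) the ranges of the inducible genes were narrower, from 1.17 for hsp-16.1 to 2.34 for hsp-16.2, with a median gene at 0.49 and 5% of genes above 1.70. The difference in spread between the strains was not tested.

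**Figure D2:**
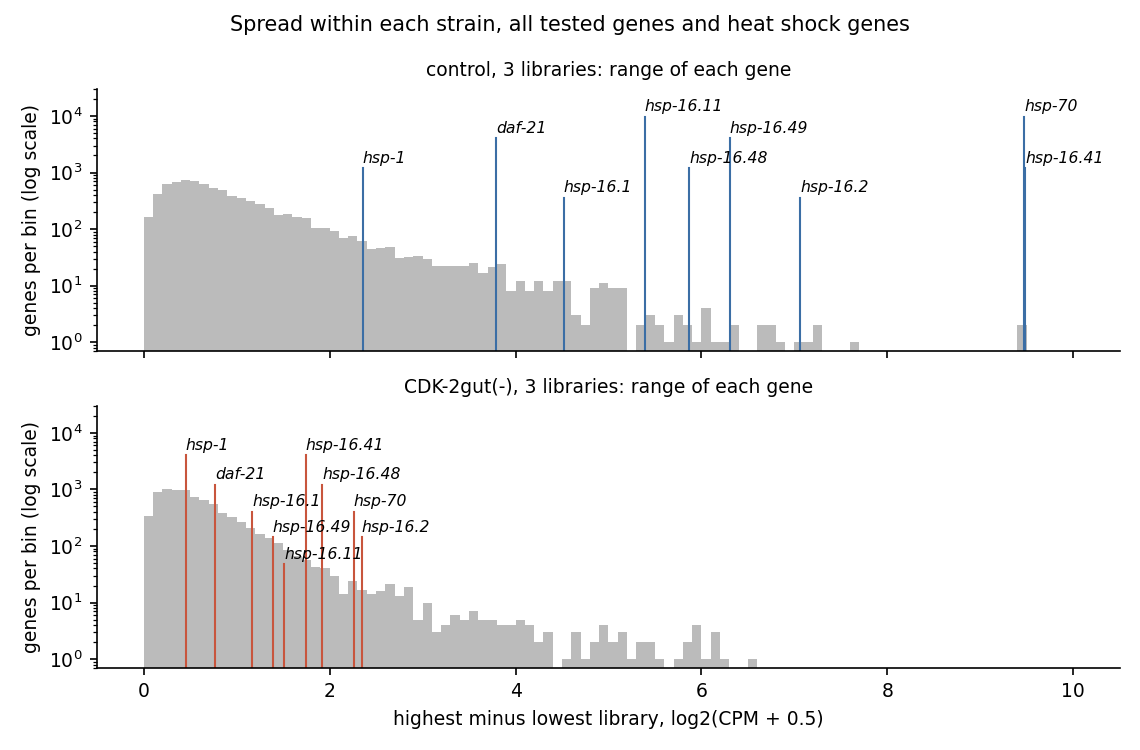
Distribution over all 8309 tested genes of the range between the highest and lowest library of a strain, in log2(CPM + 0.5), with gene numbers on a log scale and the heat shock genes marked by lines. In control, hsp-16.41 and hsp-70 lie alone at the right end at 9.49 and 9.47; in CDK-2gut(-) no heat shock gene exceeds 2.34.

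The order in which all CDK-2gut(-) libraries lay below control 2 and above controls 1 and 3 held for 8 of the 9 genes, and for 366 of the 8309 tested genes (4.40%). Among CDK-2gut(-) libraries, number 1 was highest for 9 of 9 genes. For this order, and for those with the spike-in that follow, the share over all tested genes was not counted, so they cannot be called particular to heat shock genes. Scaling to the spike-in instead gave the same description: control 2 was highest for 8 of 9 genes, control 3 lowest for 9 of 9, and all CDK-2gut(-) libraries exceeded controls 1 and 3 for 9 of 9. Within replicate numbers the strain difference changed direction. For hsp-16.41 the log2 difference of CDK-2gut(-) from control was 5.26 for number 1, -3.71 for number 2 and 5.76 for number 3, on the log2(CPM + 0.5) scale.

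Summed over the 7 inducible genes, control 2 held 15978 counts, 0.1498% of its *C. elegans* counts (exact binomial 95% interval 0.148 to 0.152). The sums were 110 counts in control 1, 14 in control 3, and 5885, 1222 and 1594 in CDK-2gut(-) 1, 2 and 3. In CPM these are 11.7, 1498 and 1.39 in the controls and 371, 97.2 and 141 in CDK-2gut(-). A ratio of inducible to constitutive counts within a library does not depend on library scaling. Inducible counts per count of hsp-1 plus daf-21 were 0.0362, 1.14 and 0.00947 in controls 1, 2 and 3 and 0.348, 0.133 and 0.190 in CDK-2gut(-) 1, 2 and 3. On the log2 scale the control mean of this ratio was -3.77 ± 3.57 (SD, n = 3) and the CDK-2gut(-) mean -2.28 ± 0.70 (SD, n = 3). The difference between the means, 1.5, was smaller than the spread between control libraries.

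**Figure D3:**
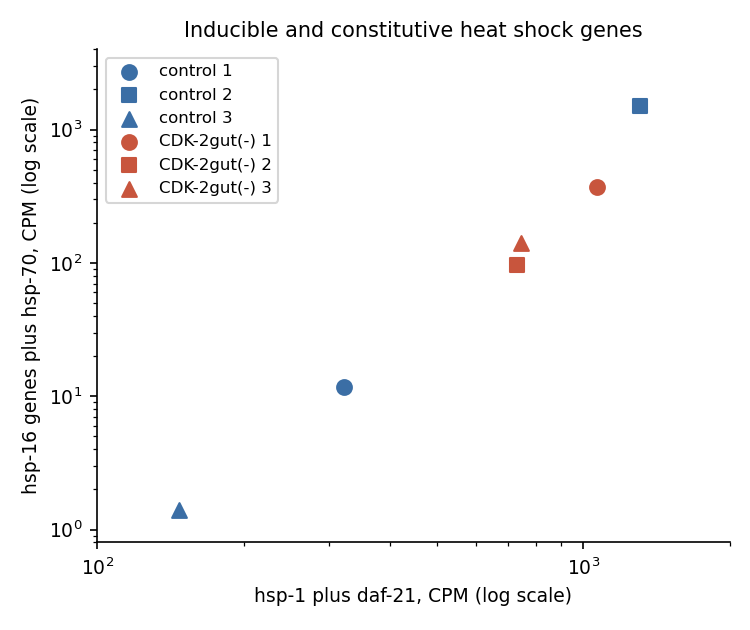
Summed level of the 7 inducible genes (6 hsp-16 genes plus hsp-70) against the summed level of hsp-1 and daf-21 in each library, both in CPM on log scales. The 6 libraries fall in 1 rising order from control 3 (1.39 against 147 CPM) to control 2 (1498 against 1309 CPM), with the 3 CDK-2gut(-) libraries between control 1 and control 2.

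Within the hsp-16 family, the share of hsp-16.41 changed little beside the change in total, but shares of genes with fewer counts changed more in proportion. The share of hsp-16.41 was 60.6% of 66 family counts in control 1 (exact binomial 95% interval 47.8 to 72.4) and 76.8% of 9930 in control 2 (75.9 to 77.6). It was 71.0% in CDK-2gut(-) 1 (69.6 to 72.4), 73.6% in CDK-2gut(-) 2 (70.6 to 76.4) and 63.4% in CDK-2gut(-) 3 (60.3 to 66.5). CDK-2gut(-) 3 lay below the other CDK-2gut(-) libraries, and control 2 above CDK-2gut(-) 1, by more than these intervals. From control 2 to CDK-2gut(-) 3, the share of hsp-16.1 went from 1.42% (1.2 to 1.67) to 4.4% (3.19 to 5.9). That of hsp-16.11 went from 3.09% (2.76 to 3.45) to 8.6% (6.89 to 10.6). CDK-2gut(-) 1 and 2 lay between, at 2.35% and 3.25% for hsp-16.1 and 5.26% and 5.96% for hsp-16.11. In control 1 the shares of hsp-16.1 and hsp-16.11 were 6.06% and 7.58%, on only 4 and 5 counts. The shares of hsp-16.48 and hsp-16.49 were also higher in CDK-2gut(-) 3 than in control 2. That of hsp-16.2 was lower there, with overlapping intervals. The 11 family counts of control 3 allow no firm share. These are shares of counts, not of molecules, since counts were not divided by gene length. Multi-mapping reads are also absent, so the near-identical copies may be counted too low and the share of hsp-16.41 may be too high.

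The strains were compared gene by gene with edgeR's quasi-likelihood test over all 8309 genes, first scaled by trimmed mean of M-values within *C. elegans*, which asks whether a gene departs from the remainder of the transcriptome. In that fit 0 of the 9 genes rose and 0 fell, where 11.8% of all genes were called higher and 6.84% lower in CDK-2gut(-) at an adjusted p under 0.05. None of the 9 had an unadjusted p under 0.05. DESeq2 called 0, giving no p for hsp-16.2 and hsp-16.41, and limma-voom called 0. The log2 fold of hsp-16.41 was -1.62 ± 2.29 (SE), with a 95% interval of -7.65 to 4.41 and an edgeR adjusted p of 0.731. The hsp-70 fold was -1.82 ± 2.28 (SE; edgeR adjusted p = 0.692), that of hsp-1 was 0.46 ± 0.48 (SE; edgeR adjusted p = 0.610) and that of daf-21 was -0.027 ± 0.940 (SE; edgeR adjusted p = 0.992). The intervals are wide: they hold changes in both directions for every gene, and for hsp-1, the narrowest, run from -0.71 to 1.63.

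The log2 fold was negative for 8 of the 9 genes in this fit, and that sign was not stable, for causes that were not tested. For hsp-16.41 the control mean lay above the CDK-2gut(-) mean (240 against 96.2 CPM). Its control median lay below the CDK-2gut(-) median (4.24 against 53.99 CPM). The limma-voom fit placed hsp-16.41 at 2.06 ± 2.61 (SE; limma adjusted p = 0.664), and likewise the log2 fold of every heat shock gene lay above 0 there. Without control 2, 7 of the 9 genes rose in CDK-2gut(-) and 0 fell, against 9.62% of all genes called higher and 8.48% lower in that fit. The log2 folds were then 3.29 to 4.72 for the hsp-16 genes, 4.13 for hsp-70, 1.01 for hsp-1 and 1.49 for daf-21. The smallest edgeR adjusted p was 0.00788, for hsp-16.11, while hsp-16.2 (edgeR adjusted p = 0.0610) and hsp-70 (edgeR adjusted p = 0.106) did not pass. Leaving out the library in which 8 of 9 genes were highest fixes the direction of this result, so it shows how far 1 library decides the comparison and is no independent sign of a difference. Leaving out any other single library gave 0 calls. Why control 2 was high was not tested.

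**Figure D4:**
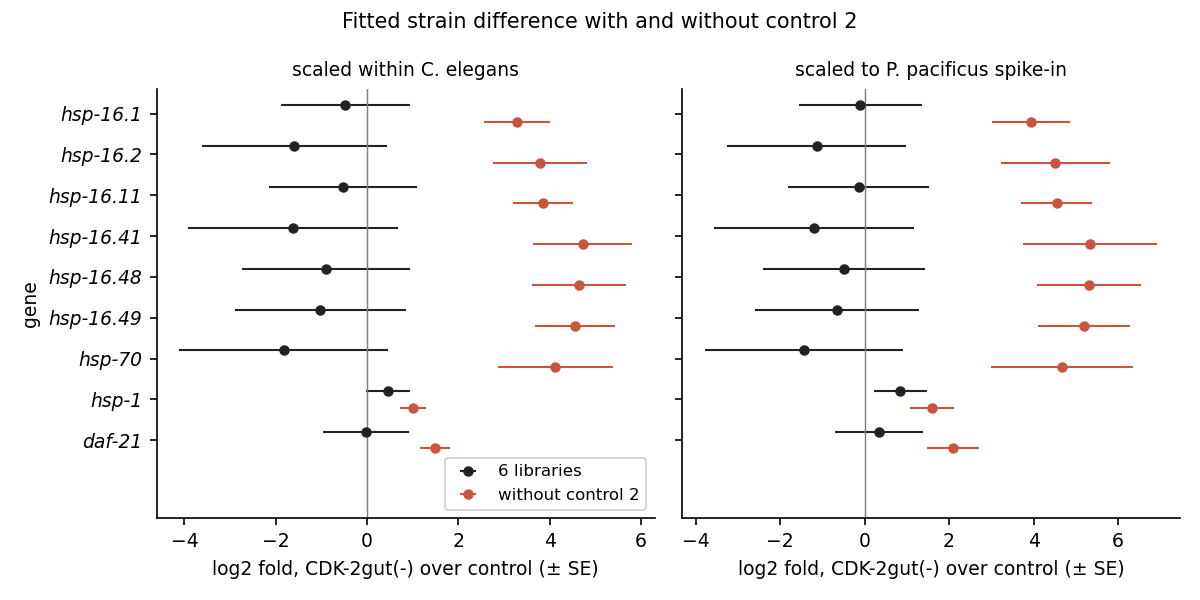
Fitted log2 fold of CDK-2gut(-) over control for each heat shock gene, with SE bars, scaled within *C. elegans* (left) and to the spike-in (right), from all 6 libraries (black) and without control 2 (red). With 6 libraries every estimate lies within 2 SE of 0; without control 2 all lie above 0.

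Scaled to the *P. pacificus* spike-in, which asks about the amount of each transcript per spike-in count, the result was the same. Again 0 of the 9 genes rose and 0 fell, where 16.4% of all genes were called higher and 2.47% lower, and none of the 9 had an unadjusted p under 0.05. DESeq2 also called 0, with no p for hsp-16.2, hsp-16.41 and hsp-16.49, and limma-voom called 0. This scaling placed the median of all genes at a log2 fold of 0.55, against 0.10 within *C. elegans*, and moved each heat shock gene up by a similar amount. The log2 fold was -1.19 ± 2.37 (SE; edgeR adjusted p = 0.787) for hsp-16.41, 0.85 ± 0.63 (SE; edgeR adjusted p = 0.431) for hsp-1 and 0.34 ± 1.04 (SE; edgeR adjusted p = 0.868) for daf-21. Without control 2, 4 of the 9 genes rose, namely hsp-16.1, hsp-16.11, hsp-16.48 and hsp-16.49, with log2 folds of 3.94 to 5.32, against 14.9% of all genes called higher and 1.99% lower. These are the near-identical copies, whose counts are uncertain. The genes hsp-16.41 (edgeR adjusted p = 0.114), hsp-16.2 (edgeR adjusted p = 0.0705) and hsp-70 (edgeR adjusted p = 0.163) did not pass, nor did hsp-1 and daf-21. The biological coefficient of variation in the fit within *C. elegans* was 1.18 to 1.68 for the inducible genes, 0.757 for daf-21 and 0.426 for hsp-1, against a median of 0.338 over all genes.

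The genes whose levels most resembled those of the heat shock genes over the 6 libraries can be given by identifier alone, since the table does not pair identifiers with symbols. WBGene00019983 was the most like the summed hsp-16 genes, with a Pearson r of 0.995 over 6 libraries on the log2(CPM + 0.5) scale. It stood at 12.62, 93.8 and 6.07 CPM in controls 1, 2 and 3 and at 72.1, 37.1 and 39.7 CPM in CDK-2gut(-) 1, 2 and 3. It thus had the same order of libraries as the hsp-16 sum and a narrower range. WBGene00001509 was the most like the mean of hsp-1 and daf-21, with a Pearson r of 0.998, at 2.99 to 10.97 CPM. Other genes were also alike: 166 of 8300 genes exceeded an r of 0.95 with the hsp-16 sum and 260 with the mean of hsp-1 and daf-21. How many genes would do so by chance over 6 libraries was not computed. The second nearest were WBGene00003177 (Pearson r of 0.993 with the hsp-16 sum) and WBGene00000112 (Pearson r of 0.996 with the mean of hsp-1 and daf-21), both under 5.2 CPM in every library.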

How the data were processed

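The deposited table holds raw, whole-number read counts for genes of both species, as the authors made it and not normalized. STAR and featureCounts are named in the submitters' processing notes, and by its name the table omits multi-mapping reads. For versions, genome build, annotation and strand setting, nothing is given in the sources used here. Columns were matched to samples by name, and groups came from the titles. All 9 genes, their names, the lists and the row boundary between species were chosen with earlier results of these data known. None of the 73268 identifiers occurs in the RefSeq gene table (0 matches), so the 14 lists of 98 symbols for the heat shock pathway, tissue markers, cdk-2 and zif-1 were not used.

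Genes were filtered with filterByExpr and tested with edgeR 4.0.16 in R 4.3.3 (robust quasi-likelihood, Benjamini-Hochberg adjustment over all genes tested, threshold 0.05), strain as the only term. Scaling was by TMM within *C. elegans* rows, or by spike-in totals times their TMM factors. Each SE is the absolute log2 fold over the square root of its F value. DESeq2 1.42.0 and limma 3.58.1 were alternatives. The edgeR fits were tested on simulated counts with the same biological coefficient of variation for every gene. It was lower than that of each of the 9 heat shock genes, so the simulation does not show how the fits behave at their spread. Levels used a prior of 0.5 CPM on the log scale. The 9 genes were named whatever their values, with the 2 genes most like the hsp-16 sum and the 2 most like hsp-1 and daf-21. Depth was 9432973 to 15874554 *C. elegans* counts per library. Poisson and binomial intervals cover counting error only, while those of the edgeR log2 folds also include spread between libraries.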

Additional observations from a re-analysis of the deposited data

How the results depend on the processing

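Counts of called heat shock genes were 0 higher and 0 lower in both scalings under each alternative that used all 6 libraries (another scaling, filter, test, species boundary or a block). Leaving out single libraries gave 0 to 7 genes higher within *C. elegans* and 0 to 4 with the spike-in, and 0 lower; the nonzero counts came from leaving out control 2. No gene fell under the low-count filter, so the test planned for such genes was not run. Replicate numbers were not taken as pairs. Over *C. elegans* genes, libraries of the same number correlated at 0.073, -0.039 and 0.23 in their deviations from the strain means. Over spike-in genes they correlated at 0.55, 0.57 and 0.85. There, numbers 1 and 2 also correlated with each other across strains, at 0.547 and 0.557, and number 3 with the others at -0.677 to -0.695. *C. elegans* counts per spike-in count were 5.35, 4.51 and 2.78 in controls 1, 2 and 3 and 5.19, 4.61 and 2.78 in CDK-2gut(-) 1, 2 and 3. Whether replicate numbers mark shared batches was not tested.

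Signs of uncalled log2 folds turned in several fits, and the cause was not tested. Values are given in the order hsp-16.1, hsp-16.2, hsp-16.11, hsp-16.41, hsp-16.48, hsp-16.49 and hsp-70. With the replicate block they were 1.40, 1.73, 1.81, 3.25, 1.86, 1.99 and 2.90 within *C. elegans* (daf-21 0.80) and 1.94, 2.31, 2.37, 3.77, 2.46, 2.56 and 3.43 with the spike-in. With limma-voom they were 1.22, 0.99, 1.42, 2.06, 1.90, 1.99 and 1.74 (daf-21 0.69), and 2.06, 1.76, 2.29, 2.85, 2.88, 3.05 and 2.58. Plain totals gave 0.28 for daf-21. Leaving out single libraries gave, within *C. elegans*, -1.03 to 3.29, -2.60 to 3.78, -1.08 to 3.86, -2.33 to 4.72, -1.49 to 4.65, -1.59 to 4.56 and -2.39 to 4.13, with hsp-1 at 0.084 to 1.01 and daf-21 at -0.50 to 1.49. With the spike-in it gave -0.68 to 3.94, -2.47 to 4.51, -0.82 to 4.55, -2.19 to 5.34, -1.38 to 5.32, -1.25 to 5.20 and -2.32 to 4.67, with hsp-1 at 0.42 to 1.60 and daf-21 at -0.16 to 2.09. In every such range the highest value came from leaving out control 2. For hsp-1 the lowest value, in both scalings, came from leaving out control 3.

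The log2 ratio of inducible to constitutive counts differed between strains by 0.020 to 3.48 on leaving out single libraries, and by 1.30 without hsp-16.41. The lowest of these differences came from leaving out control 3 and the highest from leaving out control 2. With priors of 0.1 and 2 CPM, chosen after the data were seen, hsp-16.41 and hsp-70 kept the 2 widest control ranges, in the reverse order with 0.1. The ranks of other genes moved, with hsp-16.2 at 18 and 5, hsp-16.49 at 7 and 21, daf-21 at 504 and 46 and hsp-1 at 1191 and 210.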
